A study of Mus musculus with 12 samples.

Results

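The response of the mouse hippocampus to kainate was read by setting all 6 arrays of kainate-injected mice against all 6 arrays of saline-injected mice, whatever their genotype, with genotype and replicate number as additive terms. These were all 12 arrays of the series, and 12422 of its 12488 probe sets entered the comparison, the other 66 being array controls. The arrays formed 4 groups of 3: control mice given saline, control mice given kainate, mutant mice given saline and mutant mice given kainate, where loss of 2 transcription factors, CREB and CREM, in the mutants is known from the series title alone and neither alleles nor strain are given. Males and females of 5 to 6 weeks, littermates housed singly and handled for 5 days, received 20 mg/kg kainate or saline into the peritoneum, and whole hippocampi were taken 1 hour later. RNA of 3 animals was pooled for each Affymetrix array, so a pool, not an animal, is the replicate. A pooled effect averages over both genotypes, so 6 of the 12 arrays behind it are labelled as mutant. The brightest Creb1 and Crem probe sets, given at the end, did not separate the saline arrays of the genotypes. That of Crem separated the kainate arrays, 3 against 3, and how many other probe sets did so was not counted.

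Kainate is an agonist of ionotropic glutamate receptors that drives hippocampal neurons into seizure activity. Calcium entry and kinase signalling then switch on immediate early genes within minutes, without new protein synthesis, through factors such as CREB and SRF that already sit on their promoters. The products include transcription factors of the AP-1, EGR and NR4A families, phosphatases and other feedback inhibitors that end the signal, and secreted or synaptic proteins. A fall of an mRNA in the same time can show only as fast as existing copies decay.

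Levels are deposited GCRMA values on the log2 scale, so a difference of 1 is a doubling. The arrays correlated with each other at 0.973 to 0.998 over all probe sets. The control kainate replicate 3 array stood apart, its values spanning an interquartile range of 3.74, where the other kainate arrays had 4.5 to 4.58. The replicate 1 arrays of all 4 groups deviated from their group means alike, with correlations of 0.37 to 0.85. Among tissue markers the dentate gyrus gene Dsp lay at percentile 86.1 of all probe sets and the CA1 gene Wfs1 at 89.9, but Prox1, another dentate marker, at 44.1 and the striatal Drd2 at 31.3. In the striatum and thalamus list Rxrg, Rgs9 and Tcf7l2 lay at 31.7, 28.6 and 38.4, but Calb2, Prkcd and Rora at 75.4, 68.8 and 68.0. Of the choroid plexus genes Ttr, Kl and Folr1 lay at 97.2, 83.6 and 74.7 and Aqp1 at 23.6. Probe sets differ in brightness for the same amount of RNA, so these positions do not settle which tissue was taken.

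Pooling resolved a broad set of small changes around a narrow set of steep ones. Of the 12422 probe sets, 344 passed an adjusted p of 0.05 in limma (2.77%), 132 of them higher (1.06%) and 212 lower (1.71%) after kainate. Among the rises, 34 were of at least 1 log2 unit and 98 were smaller. Among the falls, 12 were of at least 1 unit and 200 were smaller. The kainate arrays lay wholly above the saline arrays for 68 of the called rises and wholly below them for 73 of the called falls, where over all probe sets such separation occurred in 0.628% and 1.14%. All 6 kainate-saline pairs of 1 genotype and replicate number went the same way for 320 of the 344, against 8.77% of all probe sets. They were all higher for 123 of the called rises (2.81% of all probe sets) and all lower for 197 of the called falls (5.96%). The calls were made on the same differences in the same arrays, so these counts describe the called probe sets and support nothing.

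**Figure D1:**
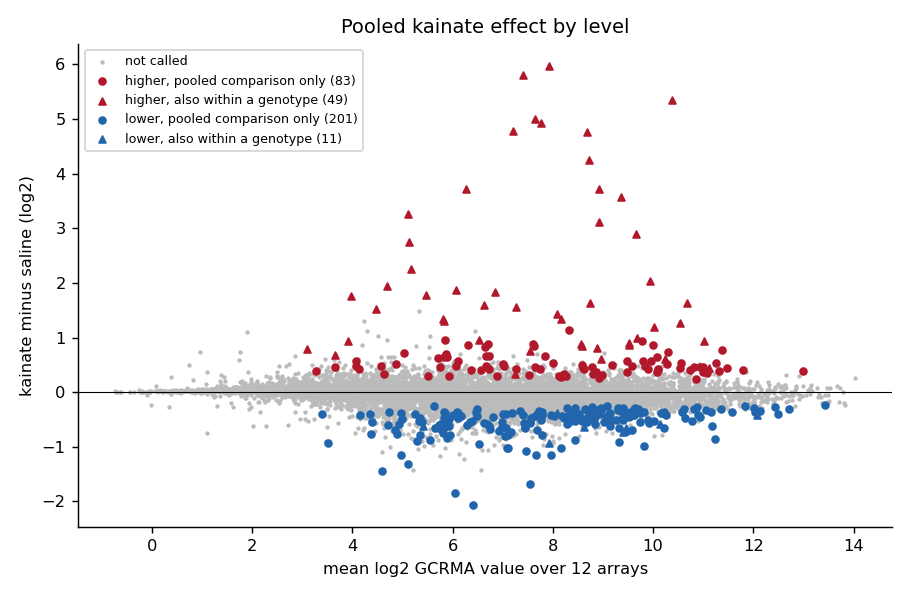
Each point is a probe set, with its mean log2 level over 12 arrays on the x axis and the pooled kainate minus saline difference on the y axis (log2); red points were called higher and blue ones lower, circles in the pooled comparison only and triangles also within a genotype. A few rises reach up to 5.97, while most called changes lie within 1 unit of 0, and 98.6% of the falls and 93.2% of the rises sit above the median level.

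The same arrays, split by genotype, called 48 probe sets in control mice (0.386%) and 44 in mutants (0.354%). Together these came to 65 probe sets, and 60 of them were among the 344. The other 284 (2.29% of all tested) were called only when the genotypes were pooled, 83 as rises and 201 as falls. The pooled-only rises ran from 0.25 to 1.14 with a median of 0.46, and the pooled-only falls from -0.24 to -2.06 with a median of -0.46. The median standard error was 0.0867 in the pooled fit and 0.125 within a genotype. The pooled comparison and those within genotypes share their arrays, so the overlap is no independent support. The effects in both genotypes had medians of 0.44 (control) and 0.50 (mutant) for the pooled-only rises and -0.48 and -0.46 for the pooled-only falls. No probe set passed for a difference of the kainate effect between genotypes in limma, with 201 at an unadjusted p under 0.05 (1.62%), and 2 of the 284 pooled-only probe sets were among those 201.

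**Figure D2:**
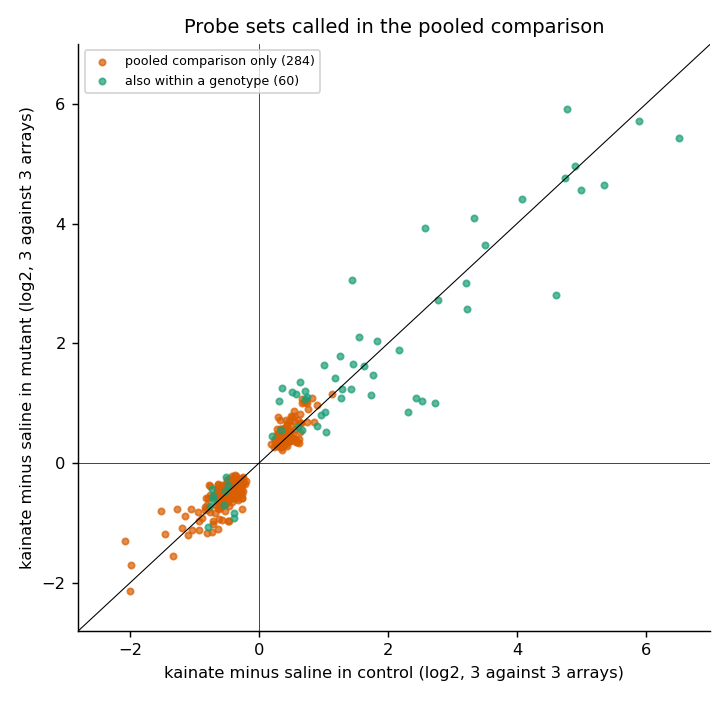
The kainate effect in control arrays (x axis, log2) is set against that in mutant arrays (y axis, log2) for the 344 called probe sets, with the line of equal effects; both axes share arrays with the pooled comparison that chose the points. The 284 probe sets called only when pooled lie near 0 on both axes, mostly within 1 unit, and those also called within a genotype spread along the line up to 6.51 in control and 5.92 in mutant arrays.

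The number of calls moved with single arrays, and the falls moved most. It was 585 without control kainate replicate 1 and 572 without control kainate replicate 3, the array with the narrow range. It dropped to 108 and 139 without control saline replicates 2 and 3, to 104 without control kainate replicate 2, and to 114 and 93 without mutant saline replicates 2 and 3. Without mutant kainate replicates 1, 2 and 3 it was 203, 114 and 107. The lower calls also rose to 331 without mutant saline replicate 1. Centring each array on its median left 106 calls, 58.5% of them higher against 38.4% as deposited. Quantile normalisation of the deposited values gave 393 calls, 47.3% of them higher, and 239 of these were among the 344. Without the replicate term 160 were called, 79 higher and 81 lower, all of them among the 344, and 49.4% of them higher. The split between rises and falls thus moved with these choices, while none of the 90 called genes named by rule changed direction under any alternative run.

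**Figure D3:**
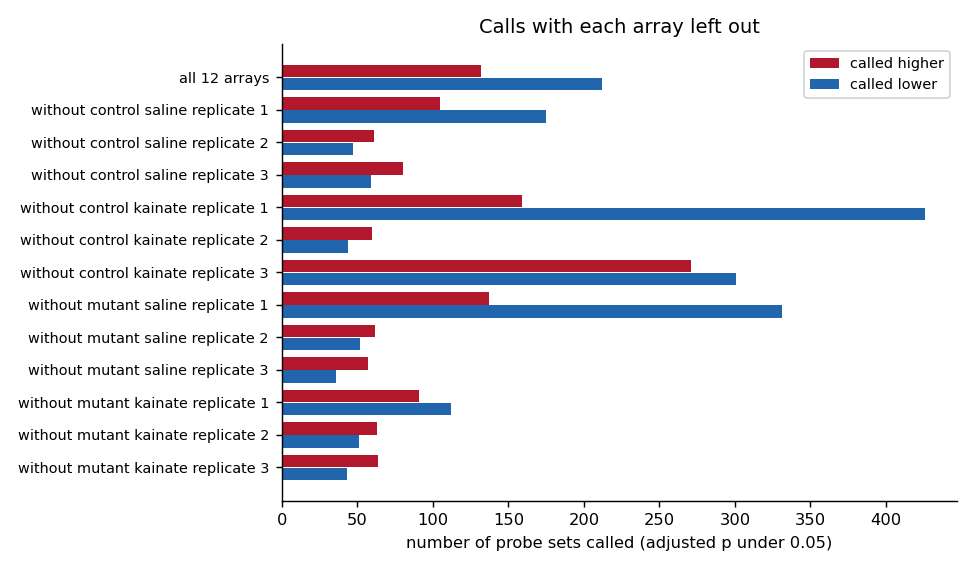
Bars give the number of probe sets called higher (red) and lower (blue) with all 12 arrays and with each array left out in turn. With all arrays 132 were higher and 212 lower, and with 1 array left out the rises ranged from 57 to 271 and the falls from 36 to 426.

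The 8 largest rises by the naming rule included the AP-1 genes Fos and Fosb and the EGR gene Egr2. Ier2, a nuclear early response protein, stood at 3.96, 5.05 and 5.69 in saline arrays and at 10.65, 10.86 and 11.29 in kainate arrays (lowest, median and highest), a rise of 5.97 (SE 0.21, adjusted p = 5.95e-08). The AP-1 component Fosb stood at 3.79, 4.29 and 5.36 in saline arrays and at 9.93, 10.4 and 10.63 in kainate arrays and rose by 5.8 (SE 0.15, adjusted p = 7.21e-09). The kainate arrays of both genes lay far above all saline arrays, with gaps wider than the spread within either treatment. Fos rose by 5.34 (SE 0.2, adjusted p = 1.02e-07), the antiproliferative Btg2 by 5.0, the growth arrest gene Gadd45g by 4.78, the zinc finger factor Egr2 by 4.75, Ptgs2, the inducible cyclooxygenase, by 4.25, and the stress-induced factor Atf3 by 3.71 (SE 0.31, adjusted p = 0.000169). Egr2 had the smallest p of all probe sets (adjusted p = 9.26e-11), and its 6 kainate arrays lay between 10.86 and 11.33.

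The effect within each genotype is given for 4 of these genes, none of whose differences between genotypes passed after adjustment. Fos rose by 4.77 in control and 5.92 in mutant arrays (unadjusted p of the difference = 0.000109). Its control and mutant levels were 12.98 to 13.13 and 12.89 to 13.19 after kainate, but 8.05 to 8.40 and 6.89 to 7.29 after saline. Ier2 rose by 6.51 in control and 5.43 in mutant arrays (unadjusted p of the difference = 0.00144). Its levels were 10.65 to 10.94 and 10.78 to 11.29 after kainate, but 3.96 to 4.65 and 5.45 to 5.69 after saline. For both genes the genotypes thus overlapped after kainate and differed after saline. Btg2 rose by 5.36 in control and 4.64 in mutant arrays (unadjusted p of the difference = 0.000452), and its genotypes differed after both treatments. Atf3 stood out by its spread among kainate arrays (6.92 to 9.58) and rose by 4.61 in control and 2.82 in mutant arrays (unadjusted p of the difference = 0.000117), and a dimmer Atf3 probe set stood at 1.12 without passing (adjusted p = 0.064).

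In the list of activity-regulated transcription factors 18 of 33 measured genes rose, 0 fell and 15 did not pass, with a median of 0.85. Over all 8251 genes, taken by their brightest probe set, 1.24% rose and 1.85% fell, with a median of 0.02. This and the other lists were written with earlier results of these data known, so the contrast is no independent support. Besides the genes above, the AP-1 gene Junb rose by 3.12 (SE 0.1, adjusted p = 5.25e-08) and by 4.93 on its other probe set, and Klf4, a Kruppel-like factor, by 1.83. Nfil3, a basic leucine zipper repressor, rose by 1.78, with 2.52 in control and 1.04 in mutant arrays (unadjusted p of the difference = 0.000865). Rises under 1 unit in the list included those of the AP-1 genes Jun and Jund, the clock gene Per1 and the Kruppel-like factor Klf2. Jun stood at 8.99, 9.06 and 9.17 in saline arrays and at 9.65, 9.98 and 10.19 in kainate arrays, a rise of 0.89 (SE 0.08, adjusted p = 0.000289). Jund stood at 10.65, 11.02 and 11.16 in saline arrays and at 11.4, 11.81 and 12.06 in kainate arrays, a rise of 0.77 (SE 0.12, adjusted p = 0.0131). Neither gene's groups overlapped. Per1 rose by 0.88 (SE 0.1, adjusted p = 0.00188) and Klf2 by 0.93 (SE 0.13, adjusted p = 0.00719). Jund was called in neither genotype alone, and without mutant saline replicate 3 it missed the threshold (adjusted p = 0.0514). Jun rose by 0.71 in control and 1.07 in mutant arrays (unadjusted p of the difference = 0.0167).

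Among activity-regulated signalling and effector genes 12 of 36 rose and 0 fell (median 0.26). Bdnf, the neurotrophin of activity-dependent plasticity, stood at 10.02, 10.7 and 10.93 in saline arrays and at 10.97, 11.48 and 11.97 in kainate arrays, with no overlap, and rose by 0.94 (SE 0.07, adjusted p = 8.99e-05). Plk2, a kinase induced by synaptic activity, rose by 0.6 (SE 0.07, adjusted p = 0.00157), to between 10.41 and 10.79 in kainate arrays from at most 10.1 in saline arrays. The matricellular gene Ccn1 rose by 2.75, and Ptgs2 is on this list too. In the list of neurotrophins, growth factors and their receptors Bdnf was the 1 rise among 36 genes.

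Of the 12 genes, 3 passed only when the genotypes were pooled. Sgk1, a kinase of the insulin and glucocorticoid pathways, stood at 10.82, 10.95 and 11.25 in saline arrays and at 11.39, 11.5 and 11.68 in kainate arrays, a rise of 0.54 (SE 0.08, adjusted p = 0.009). Odc1, the first enzyme of polyamine synthesis, stood at 5.11, 5.42 and 5.58 in saline arrays and at 5.65, 5.95 and 6.38 in kainate arrays, a rise of 0.62 (SE 0.09, adjusted p = 0.00926). Scg2, the precursor of a secretory granule protein, stood at 10.64, 10.66 and 10.82 in saline arrays and at 10.98, 11.06 and 11.49 in kainate arrays, a rise of 0.46 (SE 0.07, adjusted p = 0.0121). In all 3 genes the saline and kainate arrays were separate. That all 6 pairs rose was a condition of naming them. Within the genotypes Scg2 gave 0.57 in control and 0.35 in mutant arrays (unadjusted p of the difference = 0.143), with adjusted p of 0.0527 and 0.255. Centred arrays put Sgk1 at an adjusted p of 0.0567 and Odc1 at 0.0586.

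Some feedback inhibitors rose, and most did not pass. Of 14 measured inhibitors of MAP kinases and receptors 4 rose (median 0.13): the phosphatases Dusp1, by 3.58 (SE 0.06, adjusted p = 3.67e-10), and Dusp6, by 1.26 (SE 0.09, adjusted p = 6.61e-05), the receptor kinase inhibitor Errfi1, by 2.03, and Rgs2, which shortens G protein signals, by 2.9. Rgs2 gave 3.23 in control and 2.57 in mutant arrays (unadjusted p of the difference = 0.0185) and was the 1 rise among 12 regulators of G protein signalling. Of 17 NF-kappa B members and feedback genes 2 rose (median 0.05), Nfkbiz by 3.25 (SE 0.4, adjusted p = 0.003) and Ier3 by 1.3 (SE 0.14, adjusted p = 0.00133). Both were lowest among kainate arrays on control kainate replicate 3, at 4.48 for Nfkbiz and 5.6 for Ier3, and both passed without that array.

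Rasd1, Smad7 and Zfp36l1 were called only when the genotypes were pooled. Rasd1, a Ras-related protein induced by glucocorticoids, stood at 8.66, 9.32 and 9.83 in saline arrays and at 9.84, 10.2 and 10.87 in kainate arrays, a rise of 0.94 (SE 0.11, adjusted p = 0.00259). The lowest kainate array lay just above the highest saline array, and the differences of the 6 pairs, all above 0 by the rule that named the gene, were between 0.61 and 1.18. Smad7, the inhibitor of TGF-beta signalling, rose by 0.88 (SE 0.14, adjusted p = 0.0148), with overlapping groups. Of the mRNA decay factors of the Zfp36 family, Zfp36 rose by 1.94, Zfp36l2 by 1.56 and Zfp36l1 by 0.84 (SE 0.13, adjusted p = 0.011). They are among the 5 of 19 Kruppel-like and related zinc finger genes that rose, with 0 falls and a list median of 0.07.

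Growth arrest and cell cycle genes gave 6 rises and 1 fall among 24 (median 0.09). Tob1, an antiproliferative relative of Btg2, rose by 1.19 (SE 0.1, adjusted p = 0.00015). Sertad1, a cell cycle and transcription coregulator outside that list, rose by 0.96 (SE 0.11, adjusted p = 0.00188), with 0.71 in control and 1.2 in mutant arrays (unadjusted p of the difference = 0.0131). Cdkn2d, an inhibitor of the cyclin D kinases, was the fall: it stood at 8.63, 8.8 and 8.93 in saline arrays and at 8.23, 8.3 and 8.36 in kainate arrays and fell by 0.5 (SE 0.05, adjusted p = 0.00157), with no overlap. In the Bcl2 family 1 of 19 rose, the survival gene Mcl1, by 0.37 (SE 0.07, adjusted p = 0.0217), a call lost with 6 of the 12 arrays left out in turn.

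The remaining pooled-only rises under 1 log2 unit had varied roles. Midn, which encodes the nuclear protein midnolin, rose by 0.67 (SE 0.09, adjusted p = 0.00461), and Phlda1, a pleckstrin homology domain protein, by 0.88 (SE 0.14, adjusted p = 0.0115). Tbr1, a T-box factor of glutamatergic neurons, rose by 0.51 (SE 0.08, adjusted p = 0.0107). Tsc22d1, a leucine zipper protein, stood at 10.91, 11.14 and 11.21 in saline arrays and at 11.42, 11.51 and 11.57 in kainate arrays, a rise of 0.4 (SE 0.06, adjusted p = 0.0107). Its treatments were separate. Tspan13, a tetraspanin, rose by 0.45 (SE 0.06, adjusted p = 0.00827) and Sash1, a scaffold protein, by 0.42 (SE 0.07, adjusted p = 0.0155), both without overlap, while the reticulon Rtn2 rose by 0.42 (SE 0.06, adjusted p = 0.00534) with overlap. Cd14, the coreceptor for bacterial lipopolysaccharide, rose by 0.95 (SE 0.15, adjusted p = 0.0119) from a range of 4.88 to 5.81 to one of 5.35 to 7.14. Of the 15 genes named as modest pooled-only rises, 12 passed with every array left out in turn. Sash1 lost its call without 6 of the arrays, while Smad7 and Jund lost theirs without 1 array each, control kainate replicate 2 for Smad7 (adjusted p = 0.0511). Without the replicate term 9 of the 15 passed, and Rtn2, Odc1, Tbr1, Zfp36l1, Phlda1 and Sash1 did not. With centred arrays 9 passed, and Sgk1, Odc1, Tsc22d1, Cd14, Smad7 and Sash1 did not.

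**Figure D4:**
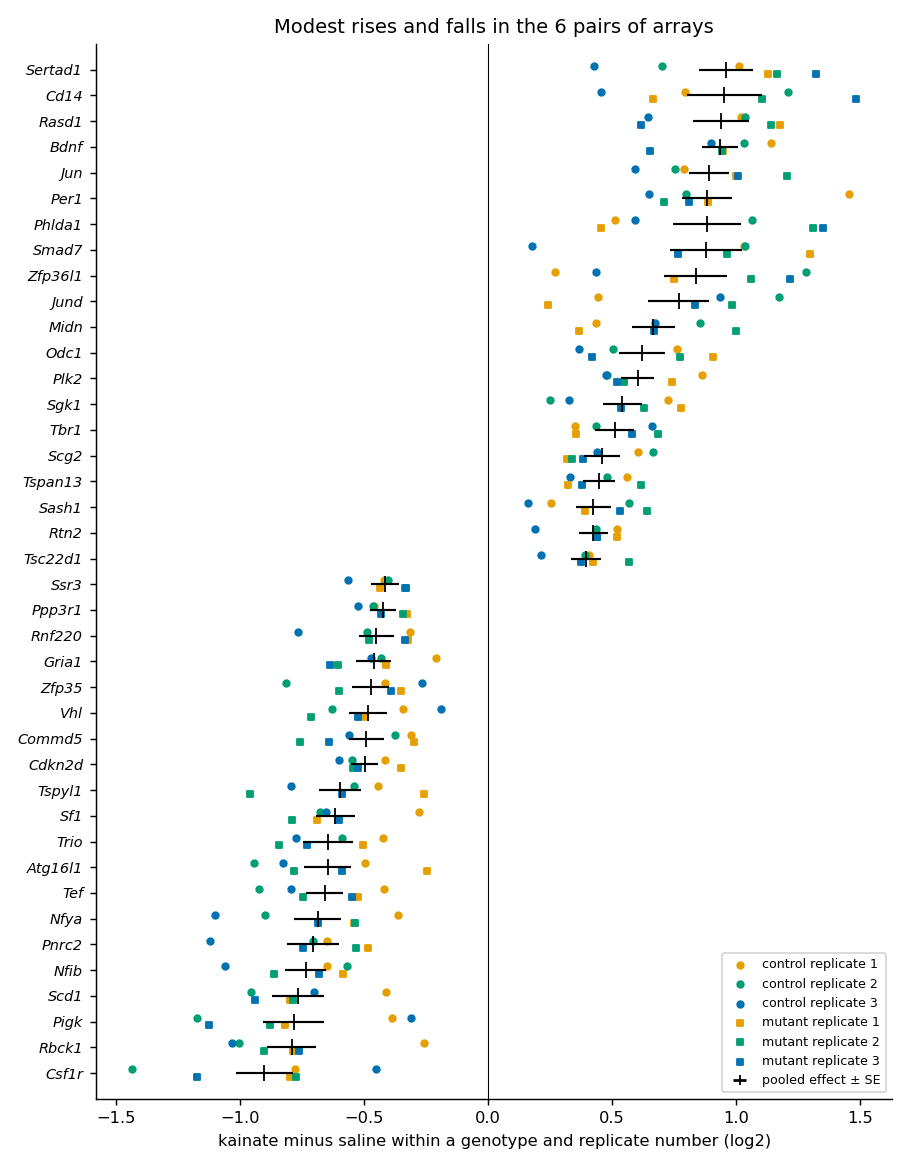
For each modest named gene, points give the kainate minus saline difference (log2, x axis) of the 6 pairs of arrays with the same genotype (circle control, square mutant) and replicate number (colour), and the black mark the pooled effect ± SE. All pairs of a gene lie on one side of 0, by the rule that chose the genes, and in many of the falls the yellow replicate 1 points lie closer to 0 than the others.

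Stress genes were split. Among 24 glucocorticoid-responsive genes 5 rose and 0 fell (median 0.08), Dusp1, Per1, Sgk1 and Errfi1 among them. Among 38 heat shock and unfolded protein response genes 3 rose and 3 fell (median -0.01). The Hsp40 cochaperone Dnajb1 stood at 7.45, 7.76 and 7.96 in saline arrays and at 8.4, 9.0 and 9.26 in kainate arrays, and its rise of 1.14 (SE 0.15, adjusted p = 0.00514) was the largest of all pooled-only rises. The constitutive chaperone Hspa8 rose by 0.39 (SE 0.07, adjusted p = 0.019). The mitochondrial chaperonin Hspd1 fell by 0.37 (SE 0.07, adjusted p = 0.0243) and the small heat shock gene Hspb8 by 0.57 (SE 0.11, adjusted p = 0.0309). The calls of Hspa8, Hspd1 and Hspb8 were each lost when certain single arrays were left out, 6, 9 and 7 of the 12.

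The promoters of the called genes were read for short elements of activity-regulated factors, since CREB, named in the series title as lost in the mutants, binds the cAMP response element. RefSeq promoters of GRCm38.p6, from 250 bases before to 50 bases after each start, were matched to 24 of 30 genes that rose by at least 1 unit, 66 of 83 that rose by less and 133 of 186 that fell. The full element, TGACGTCA on either strand, was present in 4 of 30 promoters of the steep rises (13.3%), 4 of 92 of the modest rises (4.35%) and 3 of 164 of the falls (1.83%), against 2.6% of 8412 promoters of all genes on the array and 1.79% of all 32851 promoters. The core TGACG, which the full element contains, was present in 66.7%, 34.8% and 29.9%, against 28.5% of array promoters. The serum response factor's CArG box was found in 16.7%, 1.09% and 1.83%, against 1.59%, and the 5 steep promoters with it belong to 2 genes. The AP-1 element TGANTCA was found in 0%, 7.61% and 2.44%, against 6.24%, and TATAAA in 30%, 6.52% and 6.1%, against 9.99%. These shares are descriptions of letters in a window and were not tested. Some of the genes named in the text with the full element are shown, to set steep and modest rises beside a fall. Each sequence has 30 bases on each side of the element, which is in capitals, and runs 5′ to 3′ on the gene's strand:
Btg2, chr1:134079284-134079351, minus strand: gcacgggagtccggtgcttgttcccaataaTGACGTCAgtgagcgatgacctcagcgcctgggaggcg
Dusp1, chr17:26508578-26508645, minus strand: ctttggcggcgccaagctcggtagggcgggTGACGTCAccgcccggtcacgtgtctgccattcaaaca
Errfi1, chr4:150854989-150855056, plus strand: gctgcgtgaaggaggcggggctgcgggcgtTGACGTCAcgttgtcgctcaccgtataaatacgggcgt
Plk2, chr13:110394952-110395019, plus strand: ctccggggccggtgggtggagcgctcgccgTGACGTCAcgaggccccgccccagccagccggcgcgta
Scg2, chr1:79440057-79440124, minus strand: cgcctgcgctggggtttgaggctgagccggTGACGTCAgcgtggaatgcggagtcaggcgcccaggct
Meg3, chr12:109540909-109540976, plus strand: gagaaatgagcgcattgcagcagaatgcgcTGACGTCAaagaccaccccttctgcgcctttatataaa
The element began 166 bases before the start in Btg2, 143 in Dusp1, 51 in Errfi1, 62 in Plk2, 68 in Scg2 and 57 in Meg3, a noncoding RNA. Pooled rises beside these elements ran from 5.0 for Btg2 and 3.58 for Dusp1 to 0.6 for Plk2 and 0.46 for Scg2, while Meg3 differed by -1.44, so the same full element was present beside steep rises, modest rises and a fall. Trp53inp2, chosen after its value was seen, also holds it and fell by 0.33. The element was counted in 3 falling genes, and Meg3 and Trp53inp2 are not all of them. A named gene that is not shown may therefore hold the element too.

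Of the calls under 1 log2 unit 200 were falls and 98 rises in the values as deposited. Centred arrays gave 62 higher and 44 lower calls of any size, and quantile normalisation 186 higher and 207 lower. In whole tissue, fewer cells of a type and less RNA per cell cannot be told apart. The falls also differed in size between replicate numbers: over the 212 called falls the median difference was -0.26 within replicate 1, -0.56 within replicate 2 and -0.57 within replicate 3, while over all probe sets these medians were -0.08, -0.01 and 0.14. For the 132 called rises they were 0.48, 0.78 and 0.60. What sets replicate 1 apart was not tested.

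Transcription factors were among the falls. Nfya, a subunit of the CCAAT-binding factor, stood at 4.89, 5.17 and 5.46 in saline arrays and at 4.33, 4.54 and 4.57 in kainate arrays, a fall of 0.69 (SE 0.09, adjusted p = 0.00569), with no overlap. Tef, a D-box factor of the circadian output, fell by 0.66 (SE 0.07, adjusted p = 0.00188), from between 9.7 and 9.94 to at most 9.28. In the clock and D-box list Tef was the 1 fall of 18 genes, beside rises of Per1 and Nfil3. Nfib, a nuclear factor I gene, fell by 0.73 (SE 0.08, adjusted p = 0.00188), and its brighter probe set stood at -0.38 (adjusted p = 0.0653), lower in all 6 pairs. Zfp35, a zinc finger gene, fell by 0.47 (SE 0.07, adjusted p = 0.0118), with no overlap. Among developmental and neuronal factors 2 of 33 rose, Tbr1 and the stem cell factor Sox2 (0.74, adjusted p = 0.0309), and Hey1, a Notch target, fell by 0.35 (adjusted p = 0.0424), the last 2 calls being lost with 7 and 9 of the single arrays left out.

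Of 35 genes of cAMP, calcium and calmodulin kinase signalling 0 rose and 4 fell (median -0.07). Ppp3r1, the regulatory subunit of calcineurin, stood at 11.89, 12.35 and 12.51 in saline arrays and at 11.56, 11.95 and 12.03 in kainate arrays and fell by 0.42 (SE 0.05, adjusted p = 0.00306), although the groups overlapped. Prkaca, a catalytic subunit of protein kinase A, stood at 8.29, 8.58 and 8.76 in saline arrays and at 8.05, 8.12 and 8.28 in kainate arrays, a fall of 0.41 (SE 0.08, adjusted p = 0.0217), without overlap. Pkia, an inhibitor of that kinase, fell by 0.56 (SE 0.11, adjusted p = 0.031) and by 1.14 on its dimmer probe set, and Plcb1, a phospholipase C, by 0.32 (SE 0.06, adjusted p = 0.0277). Dimmer Plcb1 probe sets stood at -0.03 (adjusted p = 0.909) and 0.12 (adjusted p = 0.734). With single arrays left out in turn Ppp3r1 kept its call, which it lost without the replicate term (adjusted p = 0.119), whereas Prkaca, Pkia and Plcb1 lost theirs without 7, 7 and 8 of the 12.

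The calls among receptor, channel and synaptic genes, by their brightest probe sets, were all falls. From 0% to 6.67% of a list was called, where 3.09% of all genes were called and 1.85% fell. Of 15 glutamate receptor and transporter genes only Gria1, the GluA1 subunit of AMPA receptors, passed. It stood at 10.2, 11.5 and 11.62 in saline arrays and at 9.79, 10.88 and 11.19 in kainate arrays, groups that overlap across replicate numbers, and fell by 0.46 (SE 0.07, adjusted p = 0.0109) and by 0.69 on its other probe set. Without the replicate term its adjusted p was 0.734. Of 16 GABA and glycine genes Gabra2, a GABA-A receptor subunit, fell by 0.66 (SE 0.15, adjusted p = 0.0472), and of 40 ion channels the potassium channels Kcna1 and Kcnj4 fell by 0.42 and 0.57 (adjusted p = 0.0411 and 0.0424). Of 32 presynaptic vesicle genes Syt11, a synaptotagmin, fell by 0.99 (SE 0.22, adjusted p = 0.0413). These 4 genes lost their calls without 8 to 10 of the single arrays, and within replicate 1 Syt11 differed by -0.09, against -1.57 and -1.31 in replicates 2 and 3. Without the replicate term none of the 4 passed, with adjusted p of 0.710 for Gabra2, 0.890 for Kcna1, 0.104 for Kcnj4 and 0.0785 for Syt11. Kcna1 stood at 6.14 to 6.65 on the replicate 1 arrays and at 8.66 to 9.62 on those of replicates 2 and 3. No member of 20 postsynaptic scaffold and spine genes passed in limma, with 6 at an unadjusted p under 0.05, where 2056 of all 12422 probe sets were under it.

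The other falls named among the modest pooled-only ones had varied roles. Rbck1, part of the linear ubiquitin ligase, fell by 0.79 (SE 0.1, adjusted p = 0.00306), and its brighter probe set stood at -0.31 (adjusted p = 0.777). Vhl, the recognition subunit of the ligase for hypoxia-inducible factors, fell by 0.48 (SE 0.08, adjusted p = 0.0119) and the ubiquitin ligase Rnf220 by 0.45 (SE 0.07, adjusted p = 0.0119). Ssr3, a subunit of the translocon-associated complex, stood at 10.3, 10.49 and 10.56 in saline arrays and at 9.89, 10.09 and 10.18 in kainate arrays, a fall of 0.41 (SE 0.06, adjusted p = 0.00558), and its 2 dimmer probe sets stood at -0.97 (adjusted p = 0.0602) and -1.69 (adjusted p = 0.0351). Pnrc2, a nuclear receptor coactivator and decapping adaptor, stood at 9.59, 9.83 and 10.08 in saline arrays and at 8.71, 9.24 and 9.37 in kainate arrays, a fall of 0.71 (SE 0.11, adjusted p = 0.00979). Neither Ssr3 nor Pnrc2 had overlapping groups. Atg16l1, of the autophagy conjugation machinery, fell by 0.65, Trio by 0.64, Pigk, of the GPI transamidase, by 0.78, Tspyl1 by 0.6 and Commd5, of the COMMD family, by 0.49, with adjusted p between 0.00719 and 0.0118. All 15 named modest pooled-only falls passed with every array left out in turn, 9 of them without the replicate term and 11 with centred arrays. Gria1, Scd1, Atg16l1, Trio, Pigk and Vhl did not pass without the term, and Nfya, Pnrc2, Trio and Rnf220 did not with centred arrays.

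Csf1r and Scd1 were called on the dimmer of several probe sets. Csf1r, the receptor that maintains microglia, stood at 5.43, 5.74 and 5.99 in saline arrays and at 4.49, 4.81 and 5.36 in kainate arrays on a probe set at percentile 58.3, a fall of 0.9 (SE 0.12, adjusted p = 0.00369), and the brighter probe set, at percentile 91.1, stood at 0.28 (adjusted p = 0.102). Scd1, a fatty acid desaturase, fell by 0.76 (SE 0.1, adjusted p = 0.00534) on a probe set at percentile 55.1, and its 2 brighter ones, at percentiles 93.8 and 95.8, stood at 0.16 and 0.02 without passing. Such disagreement was common. The 68 genes with a called fall and several probe sets had 58 further probe sets above the median level, of which 38 were below 0 (median effect -0.04) and 18 of these had an unadjusted p under 0.05. For the 37 genes with a called rise the corresponding numbers were 21, 11 above 0 (median 0.03) and 3. Of 105 called genes with several probe sets 6 had every probe set called alike, and which transcript forms the probe sets read was not analysed here.

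Calls among RNA and metabolic genes were spread over several lists. Splicing and RNA-binding genes gave 2 rises, Hnrnpd (0.57, adjusted p = 0.0386) and Srsf5 (0.47, adjusted p = 0.0417), and 2 falls, the splicing factor Sf1 by 0.62 (SE 0.08, adjusted p = 0.00396) and Rsrp1, an arginine- and serine-rich protein, by 0.58 (SE 0.09, adjusted p = 0.0109), among 48 (median -0.04). The 43 respiratory chain genes had 3 falls, the succinate dehydrogenase subunits Sdhb and Sdhd and the ATP synthase subunit Atp5e, by 0.41, 0.37 and 0.5 (median of the list -0.01). The 28 cytosolic ribosomal protein genes had 2 falls, Rps7 by 0.35 and Rpl19 by 0.3 (median -0.08), and the 50 proteasome and ubiquitin genes 2, Psma4 by 0.38 and Ube2a by 0.28 (median -0.1). Fdps, an enzyme of the mevalonate pathway, was the 1 fall among 19 cholesterol genes (-0.46, adjusted p = 0.0332). A second bright Fdps probe set, at percentile 87.3, stood at -0.28 without passing (adjusted p = 0.194). Shares of 4 to 8.33% in these lists stand against 3.09% of all genes called. Psma4, Sf1 and Rsrp1 passed with every array left out, whereas the others named here lost their calls without 7 to 11 of the single arrays. No member of 25 glycolysis and glucose transport genes, or of 40 histones and chromatin regulators, passed in limma, with 7 and 10 at an unadjusted p under 0.05. Of all 12422 probe sets 2056 were under it.

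**Figure D5:**
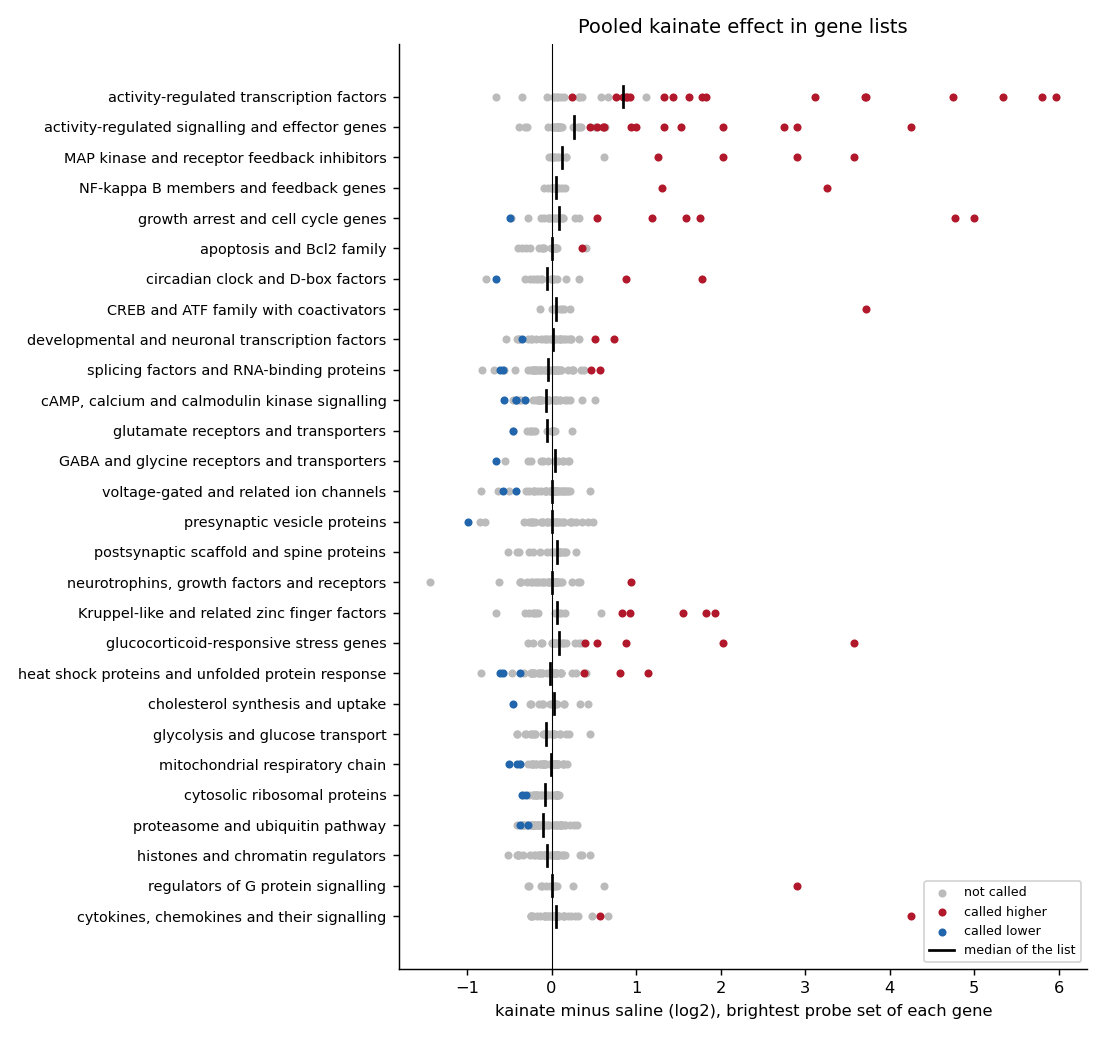
Each row is one of the gene lists other than the cell type markers and each point the pooled kainate minus saline difference (log2, x axis) of a member's brightest probe set, red if called higher, blue if called lower and grey if not called, with a black line at the list's median. Medians clearly above 0 appear for the activity-regulated transcription factors (0.85) and signalling genes (0.26), and the medians of the other lists drawn lie between -0.10 and 0.13. The lists were written with earlier results of these data known.

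The largest falls were uneven across replicates. The microtubule-associated gene Map2 stood at 6.09, 7.74 and 7.88 in saline arrays and at 4.72, 5.24 and 6.53 in kainate arrays and fell by 2.06 (SE 0.33, adjusted p = 0.0131), a call lost with centred arrays (adjusted p = 0.0562). Its differences within replicates 1, 2 and 3 were -0.78, -2.66 and -2.74, and the mutant saline replicate 1 array, at 6.09, lay below all other saline arrays (7.36 to 7.88). Further falls of this size, chosen after their values were seen, were those of the deubiquitinase gene Usp22 (-1.25, -2.01 and -2.26 within replicates 1, 2 and 3), the sheddase gene Adam10 (-0.36, -1.62 and -1.99) and the noncoding RNA Meg3 (-0.93, -1.35 and -2.04). Across the 12 falls of at least 1 unit the medians within replicates 1, 2 and 3 were -0.45, -1.53 and -1.59. Each of the 12 was called in neither genotype alone.

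Few cell type markers passed by their brightest probe sets. None of 12 astrocyte, 10 oligodendrocyte, 14 microglia, 4 choroid plexus, 16 interneuron, 7 dentate granule, 5 CA1, 9 CA3 and CA2, and 7 striatal and thalamic markers passed in limma, with 5, 5, 2, 2, 4, 2, 0, 5 and 0 at an unadjusted p under 0.05, and their list medians ran from -0.32 (choroid plexus) to 0.17 (microglia). Of all 12422 probe sets 2056 were under that unadjusted p. The mean log2 level of the 14 microglia markers was 5.93 to 6.85 in saline and 6.01 to 7.0 in kainate arrays, that of the 10 oligodendrocyte markers 8.11 to 8.39 and 7.94 to 8.25, and that of the 12 astrocyte markers 9.51 to 9.96 and 9.44 to 10.08. Among dimmer probe sets of markers Aqp4, the astrocyte water channel, fell by 0.44, the myelin gene Mbp by 0.54, and Tubb3, a neuronal tubulin, rose by 0.31, while the brightest Mbp probe set stood at 0.15 without passing and the brightest Tubb3 probe set at -0.17 (adjusted p = 0.119). General neuronal markers, of which Map2 passed, had a median of -0.17 over 11 genes, with 7 at an unadjusted p under 0.05 and mean levels of 10.21 to 10.52 in saline and 9.89 to 10.38 in kainate arrays. CA3 and CA2 markers had a median of -0.27 with mean levels of 7.76 to 7.86 in saline and 7.48 to 7.78 in kainate arrays. In blood and endothelium Hba-a1, a haemoglobin chain, rose by 0.53 (SE 0.12, adjusted p = 0.0498), with 0.29 in control and 0.77 in mutant arrays (unadjusted p of the difference = 0.0407), and Hbb-b2, another chain chosen after its value was seen, by 0.86. Hba-a1 lost its call without 11 of the 12 single arrays, without the replicate term (adjusted p = 0.058) and with centred arrays (adjusted p = 0.124). The 11 markers of that list had mean levels of 5.5 to 5.6 in saline and 5.52 to 5.88 in kainate arrays, and the part of cell composition or blood in any change above was not tested.

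The cytokine list held 2 rises among 42 genes (median 0.05), Ptgs2 and the chemokine Ccl2, by 0.58 (SE 0.12, adjusted p = 0.0363), with overlapping groups and a rise in 5 of 6 pairs. Ccl2 lost its call with 9 of the 12 arrays left out in turn and with centred arrays (adjusted p = 0.0521). The targeted genes did not pass for kainate: the brightest Crem probe set stood at 4.21, 4.29 and 4.45 in saline arrays and at 4.12, 4.41 and 4.8 in kainate arrays (difference 0.15, SE 0.1, adjusted p = 0.614) and that of Creb1 at 3.82, 3.86 and 4.01 in saline arrays and at 3.8, 3.87 and 4.34 in kainate arrays (difference 0.05, SE 0.09, adjusted p = 0.878). In saline arrays the Creb1 probe set stood at 4.01, 3.86 and 3.82 in control and 3.94, 3.85 and 3.82 in mutant arrays, and that of Crem at 4.45, 4.32 and 4.26 in control and 4.33, 4.21 and 4.26 in mutant arrays (replicates 1, 2 and 3). These saline levels overlap between genotypes, so they do not bear the labelled loss out. In kainate arrays Crem stood at 4.51, 4.80 and 4.80 in control and at 4.16, 4.12 and 4.31 in mutant arrays, without overlap. How many of all probe sets separate the genotypes in this way was not counted. Further probe sets were dimmer, at percentile 22.4 for Crem and at 26.0 and 32.2 for Creb1, and did not pass for kainate. Creb1 stood at 3.88, 3.87 and 4.34 in control and at 3.85, 3.80 and 3.87 in mutant kainate arrays. Both probe sets were dim, at percentiles 45.0 (Creb1) and 50.5 (Crem), and GCRMA changes dim probe sets little. Which parts of the transcripts the probe sets read was not analysed here. For Crem the kainate difference was 0.36 in control and -0.07 in mutant arrays (unadjusted p of the difference = 0.0202). The CREB and ATF family with its coactivators had 1 rise, Atf3, among 11 genes (median 0.05).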

How the data were processed

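Gene expression in pooled hippocampal RNA was measured on 12 Affymetrix arrays, grouped by their titles. The authors deposited log2 values, and the submitters' processing notes name GCRMA and R 2.4.1. GCRMA subtracts background by probe sequence and normalises quantiles, so dim probe sets change little and levels of different probe sets cannot be ranked. Its version is not given in the sources used here. The table ran from -0.78 to 14.35 with array medians of 4.23 to 4.47, and the number of arrays limits precision.

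By the platform annotation 10833 probe sets had 1 symbol, 396 several and 1193 none. RefSeq held 10817 of the symbols' entries. In limma 3.58.1 (R 4.3.3) a model of treatment, genotype and replicate number was fitted to all 12 arrays (7 residual and 3.18 prior degrees of freedom), and one with a kainate effect per genotype and the replicate number (6 and 3.41). Tests were two-sided, adjusted by Benjamini-Hochberg over 12422 probe sets at 0.05, without a filter on level, and errors are standard errors of the fit. The scripts were tested on simulated data. At an unadjusted p under 0.05 there were 2056 probe sets, where 621 would be expected by chance.

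Named genes had 1 symbol, passed, and went the same way in all 6 pairs: up to 8 rises of at least 1 log2 unit (largest first), up to 15 rises and 15 falls under 1 unit called in neither genotype alone, up to 5 rises under 1 unit and 5 falls called also in a genotype (smallest p first), up to 4 called members of each list without the rule on pairs, and Creb1 and Crem. The passing probe set with the highest mean was named. The 40 lists held 1140 different genes, 830 of them measured, each by its brightest probe set. A gene can be on several lists. Members and lists were chosen with earlier results of these data known. Alternatives changed the replicate term, genotype term, normalisation, filter, prior, array weights, probe sets, fold and arrays; weights gene by gene were added after seeing the data. Promoter letters were searched with Python 3.11.15 in RefSeq sequences of GRCm38.p6.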

Additional observations from a re-analysis of the deposited data

Results flagged for a closer look

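In groups of the 6 arrays of a treatment, 188 groups of values were checked for 1 array far from the other 5 by Dixon's ratio at its 95% level, which chance exceeds in about 1 of 20, and 12 exceeded it. Control kainate replicate 3 was the far array in 7 of them: its interquartile range was 3.743 (others 4.5 to 4.58), its median 4.466 (4.23 to 4.28), and its values were 7.422 for Pigk (6.37 to 6.72), 5.604 for Ier3 (6.5 to 6.86), 4.476 for Nfkbiz (6.68 to 7.69), 7.189 for Zfp36l2 (8.0 to 8.4) and 4.338 for Creb1 (3.80 to 3.88). Control kainate replicate 2 was low for Zfp35, at 4.984 (5.11 to 5.17). Control saline replicate 1 was low for Ssr3, at 10.3 (10.47 to 10.56), and high for Junb, at 7.932 (7.15 to 7.33). Mutant saline replicate 2 was low for Tsc22d1, at 10.91 (11.1 to 11.21), and mutant saline replicate 1 for Map2, at 6.094 (7.36 to 7.88). The causes were not tested.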

How the results depend on the processing

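The 8 largest named rises kept their calls: Ier2, Fosb, Fos, Btg2, Gadd45g, Egr2, Ptgs2 and Atf3 passed under every alternative that gave a p. Counts moved. With the main setting 344 probe sets were called, 132 higher, 212 lower and 284 only when pooled. The titles number the replicates without saying that arrays of equal number were paired. Deviations of same-numbered arrays correlated at 0.37 to 0.85 for replicate 1 and at -0.01 to 0.62 for replicates 2 and 3. Among arrays of the other groups, 11 of 12 arrays correlated best with one of their own number. Without a replicate block the counts were 160, 79, 81 and 113, with genotype by number as 6 blocks 133, 73, 60 and 91, and with the number as a random block 178, 87, 91 and 128. Centred arrays gave 106, 62, 44 and 80, and quantile normalisation 393, 186, 207 and 303. A fold of at least 1.5 left 127, 67, 60 and 73. Replicates 2 and 3 alone gave 770 calls, 576 lower and 710 only when pooled. Group means averaged over genotypes gave 136 lower and 180 only when pooled, and probe sets above the median level 331 lower. Array weights did not converge (2367, 918, 1449 and 3), and weights estimated gene by gene gave 2160, 860, 1300 and 603. Leaving out each array gave 93 to 585 calls, 57 to 271 higher, 36 to 426 lower and 52 to 491 only when pooled. The cause was not tested, apart from the fold limit, which only removes calls. No named gene's call reversed. Of the modest pooled-only rises 4 of 15, and of such falls 5 of 15, passed under every alternative. Of the 42 further list members 18 passed with every array left out, 28 without the replicate term and 17 with centred arrays. A fold limit gives no p for single genes.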
